A study of Mus musculus with 28 samples.

Results

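The comparison concerns 12 of the 28 bulk RNA-seq libraries of the study, 6 from B220- CD138+ long-lived plasma cells (LLPC) and 6 from CD23+ B cells. They were chosen by their labels alone, and their counts played no part in the choice. All 12 came from sorted spleen cells of female mice with an intact Xist gene (WT) and the disease label low dsDNA, and the number in the names of the deposited tables paired them into 6 animals, each with 1 library per subset. Groups were matched for age; the ages themselves, the strain and the Cre driver of the deletion are not named in the labels. The other libraries came from CD11c+ age-associated B cells (ABC) and from mice with Xist deleted in B cells (cKO). Of those, 3 LLPC and 3 CD23+ libraries of cKO mice labelled high dsDNA (cKO high), the animals with lupus-like disease, serve below as a second set of animals for the same contrast.

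CD23 is the low-affinity IgE receptor carried by follicular B cells, which circulate through lymphoid tissue and wait for antigen. Plasma cells arise when activated B cells leave that state. They lose the B220 form of CD45, gain the proteoglycan CD138 (syndecan-1) and devote much of their protein synthesis to secreted antibody. Bulk libraries of sorted cells report relative RNA amounts, so a lower value can come from fewer cells with an RNA or from less of it per cell.

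The tables identify features by IDs with the prefix MGP_BALBcJ_G and do not pair them with gene names. None of the 40303 IDs (0 matches) occurs in the reference tables, so the markers of the sort (CD23, CD138 and B220), 11 planned gene lists and the markers of other cell types could not be looked up. The sorted identity of the libraries was therefore not checked against marker genes. Features are described by level, by difference and by how they repeat over animals, and 4 are given by ID as examples of the difference between the subsets.

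Library totals ran from 4651060 to 10599602 counts in LLPC and from 6768292 to 23866710 in CD23+ cells. A library of each subset, both from animal 6, stood apart from the other 5 of its group. The LLPC library of animal 6 was less concentrated on few features than the others, and the CD23+ library of animal 6 held counts in 29517 features, against 16913 to 18879 in the rest. The values that rest on these libraries are given with and without them.

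Counts were concentrated on fewer features in the plasma cell libraries than in CD23+ cells, to a degree that differed between animals. In CD23+ cells the leading feature took 7.36% ± 0.739 of all counts (SD, n = 6), and in LLPC it took 16.7% ± 3.22 (n = 6). It was the same feature in all 12 libraries. The 10 leading features of each LLPC library took 40.5, 48.0, 44.4, 50.2, 48.3 and 27.4% of its counts in animals 1 to 6. The same measure in CD23+ cells stayed between 13.8 and 14.8%, so that even the lowest LLPC library lay above every CD23+ library. The number of features that together held 50% of counts was 96, 17, 32, 10, 17 and 370 in the LLPC libraries of animals 1 to 6, against 639 to 659 in CD23+ cells. Each of these 3 measures, and the share in the 100 leading features (53.6% ± 8.1 in LLPC and 25.4% ± 0.445 in CD23+ cells), separated the groups without overlap. The exact two-sided permutation test gave p = 0.00216 for each, the smallest value that 924 divisions allow, and 0.00271 after adjustment over 5 measures.

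**Figure D1:**
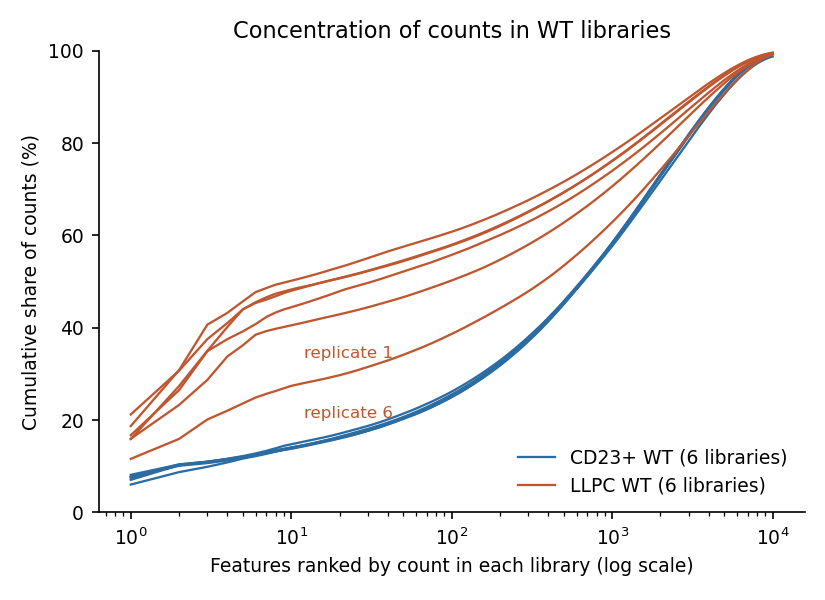
Cumulative share of counts (y axis, %) over the leading features of each library (x axis, rank on a log scale), 1 line per library. The 6 CD23+ lines run together and reach 50% after 639 to 659 features, whereas the LLPC lines start at 11.6 to 21.2% and fan out, with animal 6 lowest.

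How many different features were seen did not separate the subsets. Thinned to 4000000 counts, LLPC libraries held 15747 ± 527 features (n = 6) and CD23+ libraries 17134 ± 3351 (n = 6), a difference of -1386 features with an exact two-sided permutation p of 0.465, also 0.465 after adjustment. The wide spread in CD23+ cells came from animal 6, whose library held 23944 features at that depth against 15404 to 16336 in the others. Without it the difference was -24.2 features. A loss of features in the concentrated plasma cell libraries was thus not detectable at this depth.

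The features that filled the plasma cell libraries were of several kinds. Of the 10 most abundant in LLPC by mean, 2 were also among the 10 most abundant in CD23+ cells, which is 20% of each list. The second in LLPC took 8.48% of counts on average and was 27th in CD23+ cells, at 84848 ± 24701 against 1528 ± 116 CPM (the share of a library's total, rescaled to a common total). The third rose from 2373 ± 224 to 66983 ± 34405 CPM. The fourth was 7635th in CD23+ cells, at 13.1 ± 6.28 CPM, and reached 40563 ± 28144 CPM in LLPC. Another 4 of the 10 had ranks from 6013 to 9683 in CD23+ cells, between 4.80 and 24.6 CPM. Some of these RNAs differed widely between the plasma cells of different animals. The fourth ran from 12908 to 76174 CPM, a 5.90-fold range, and the ninth from 594 to 16865 CPM, a 28.4-fold range. The leading feature varied only 1.83-fold among the LLPC libraries, and the sixth (20345 ± 5067 CPM in LLPC, 26526 ± 3213 in CD23+ cells) was the only one of the 10 that did not pass the test between subsets (log2 fold change 0.25, edgeR adjusted p = 0.319).

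Of 13503 features with enough counts to be tested, 68.1% differed between LLPC and CD23+ cells at an adjusted p under 0.05 by edgeR's quasi-likelihood test. By direction, 33.5% were higher and 34.5% lower in LLPC, so a call by itself says little about a single feature here. On the TMM scale the sizes were not alike in the 2 directions. A fold change of at least 2 was reached by 2986 higher and 2533 lower features, one of at least 4 by 1792 and 977, one of at least 16 by 851 and 192, and one of at least 64 by 307 and 33. Many falls were modest on the TMM scale, while the rises had a long tail. The upper quartile of called rises was 3.17 on the log2 scale, and the lower quartile of called falls was -1.82. Leaving out both libraries of animal 6 gave 4759 rises and 4224 falls, with 902 and 187 at 16-fold or more. The balance of directions, also among the larger changes, depends on how the libraries are scaled. With plain library totals in place of TMM scaling the median log2 fold change of all tested features moved from -0.02 to -0.62. The calls became 2682 higher and 7225 lower, and the share of calls that were higher went from 49.3 to 27.1%. At 2-fold or more, 2054 were then higher and 4761 lower, and at 16-fold or more 676 and 300. DESeq2 size factors tipped the balance the other way, to 4902 higher and 4240 lower. The TMM factors were 1.12 to 1.20 in the CD23+ libraries and 0.66 to 1.03 in LLPC, with animal 6 the highest. Fold changes below are relative to TMM scaling unless CPM on library totals is named.

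**Figure D2:**
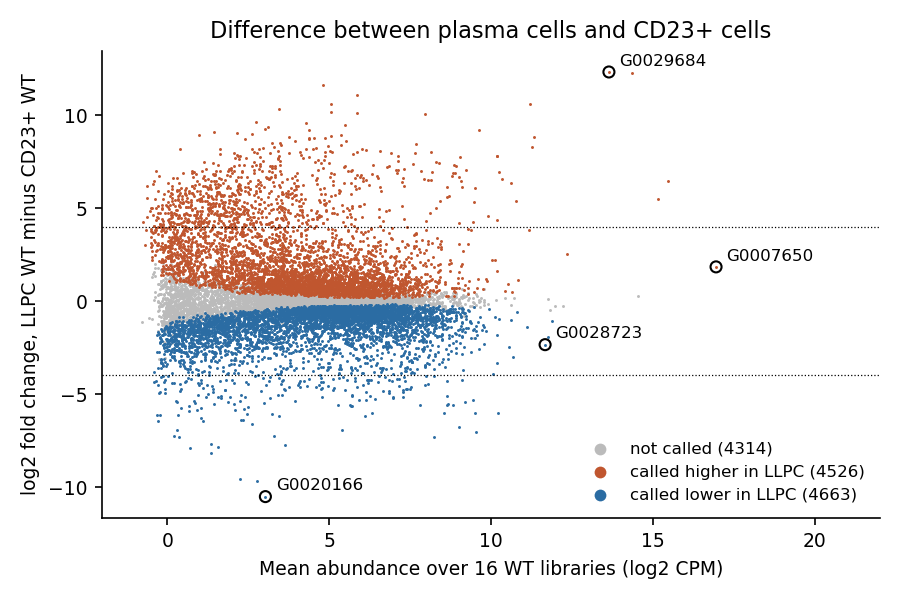
Log2 fold change of LLPC WT over CD23+ WT (y axis) against mean abundance over the 16 WT libraries (x axis, log2 CPM), 1 point per tested feature, red for called higher, blue for called lower and grey for not called; dotted lines mark a 16-fold change and circles the features named by ID. The upper cloud reaches further out than the lower one, with 851 features above the upper dotted line and 192 below the lower one.

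The tested features were also divided into 5 equal classes by mean abundance over the 16 WT libraries. In the lowest class 32.8% were called higher and 28.2% lower, and in the most abundant class 26.4% were higher and 49.3% lower. The 16-fold rises numbered 319 in the lowest class and 79 in the highest, and the 16-fold falls 60 and 52. The median log2 fold change of the most abundant class was -0.27, against -0.04 in the lowest. In absolute size the median was 0.72 in the most abundant class and 1.45 in the lowest. The LLPC and CD23+ counts enter both this mean abundance and the fold change. CD23+ and ABC libraries together outnumber LLPC libraries in the mean. A feature low outside LLPC is thus drawn to a lower class, and one low only in LLPC to a higher class. The values by class are a description, and an effect of abundance itself on direction or size was not tested.

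In terms of the RNA pool, the called features exchanged places. The 4526 features called higher took 21.1% ± 0.79 of counts in CD23+ cells and 66.8% ± 6.73 in LLPC (n = 6 each). The 851 with at least 16-fold rises accounted for 0.577% ± 0.0381 in CD23+ cells and 29.7% ± 6.76 in LLPC, where the library of animal 6 was lowest at 17.5%. The 4663 features called lower went the other way, from 52.1% ± 1.37 to 15.1% ± 2.21. The 192 that were at least 16-fold lower had made up only 3.04% ± 0.0416 of CD23+ counts and were left with 0.0627% ± 0.0291. The calls were made on these same counts, so these shares describe the difference and do not test it.

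Among features that averaged 10 CPM or more in LLPC and had no overlap between groups, MGP_BALBcJ_G0029684 had the highest fitted fold change, which the fourth LLPC feature approached at a log2 fold change of 12.27. It stood at 3.80, 4.88, 13.8, 12.8, 3.87 and 6.44 CPM in the CD23+ libraries of animals 1 to 6, and at 24407, 38256, 15813, 25612, 29529 and 15577 CPM in their LLPC libraries. The lowest LLPC value was thus over 1000 times the highest CD23+ value, although the animals with the lowest plasma cell levels, 3 and 6, were not those with the lowest CD23+ levels. The log2 fold change was 12.32 with TMM scaling (SE 0.853, edgeR adjusted p = 1.45e-09). On library totals the ratio within an animal ran from 1146 to 7846. In the 4 WT ABC libraries the level was 259.2 ± 238 CPM, with single libraries from 26.4 to 590.1 CPM, between those of the other subsets.

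The largest gain in CPM was that of the leading feature itself, MGP_BALBcJ_G0007650. It was at 77158, 70658, 74976, 77122, 81460 and 60343 CPM in the CD23+ libraries of animals 1 to 6 and at 159588, 158926, 167250, 187070, 212237 and 116002 CPM in LLPC. Animal 6 was lowest in both subsets, and the groups did not overlap. The rise was 1.92-fold to 2.61-fold within animals on library totals, where the fitted log2 fold change was 1.18. With TMM scaling the log2 fold change was larger, at 1.84 (SE 0.29, edgeR adjusted p = 2.64e-05). In WT ABC the feature stood at 83756 ± 25116 CPM (n = 4), against 73620 ± 7391 CPM in CD23+ cells. The single ABC libraries were at 64490, 61117, 96625 and 112792 CPM. They ran from within the CD23+ range to just below the lowest LLPC library.

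MGP_BALBcJ_G0020166, of which no read was counted in any LLPC library, was chosen as the lowest fitted fold change. Its place among the strongest falls is not measured, since 3 features of at least 10 CPM in CD23+ cells had no count in LLPC. In CD23+ cells it was at 38.9, 27.2, 9.98, 15.1, 19.6 and 17.1 CPM in animals 1 to 6, a mean of 21.3 ± 10.3 CPM (n = 6) from 1613 counts. With 0 of 43124964 counts in LLPC, the count allows up to 3 reads over the group, or 0.0696 CPM, and the level was at least 306.5-fold lower in LLPC against that limit (edgeR adjusted p = 8.02e-08). In ABC it was at 3.24 ± 1.29 CPM (n = 4), and it was also 0 in the 3 LLPC libraries of cKO high mice.

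Among called features whose groups did not overlap, the largest loss in CPM was that of MGP_BALBcJ_G0028723, an abundant RNA of CD23+ cells. It was at 5796, 6335, 5257, 5659, 5315 and 4939 CPM in the CD23+ libraries of animals 1 to 6 and at 1004, 613.4, 546.5, 607.9, 857.1 and 643.8 CPM in LLPC. Every LLPC library was far below every CD23+ library, and the level left in LLPC was 12.8% of that in CD23+ cells on library totals, or 7.79-fold lower. On the TMM scale the fall was smaller, with a log2 fold change of -2.34 (SE 0.183, edgeR adjusted p = 5.81e-09). The 4 ABC libraries, at 5298 ± 1026 CPM, were at the CD23+ level.

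**Figure D3:**
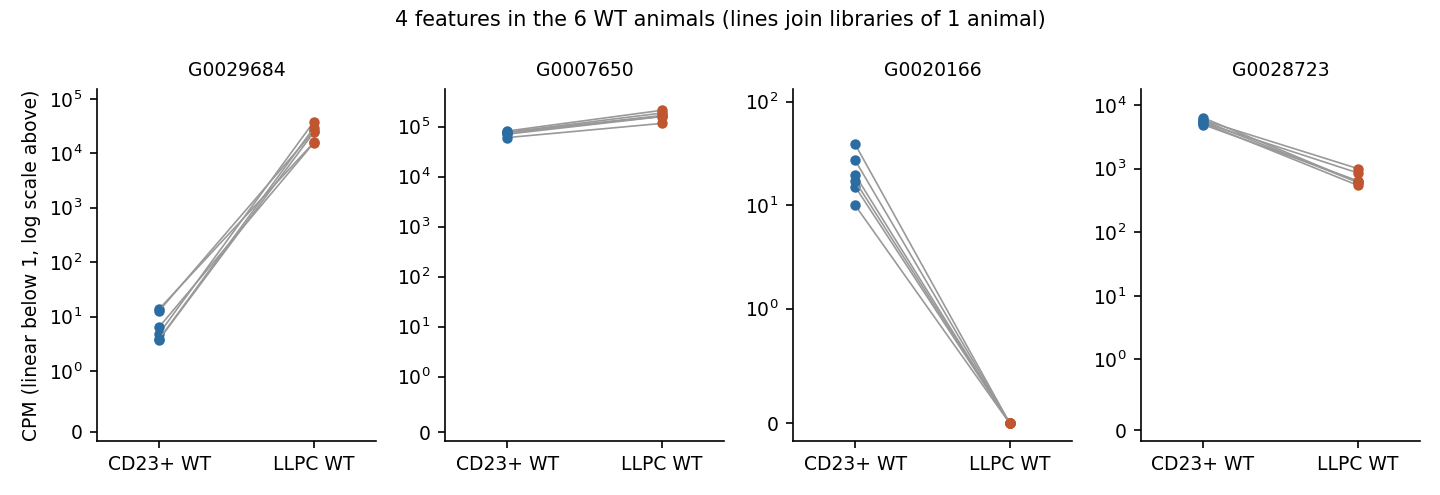
CPM on library totals (y axis, log scale above 1 and linear below) of 4 features in the CD23+ and LLPC libraries, with a line for each of 6 animals. G0029684 goes from 3.80 to 13.8 CPM up to 15577 to 38256 CPM, G0007650 from 60343 to 81460 up to 116002 to 212237, G0020166 from 9.98 to 38.9 down to 0, and G0028723 from 4939 to 6335 down to 546.5 to 1004.

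Features confined to 1 subset were rare. Of 8235 features averaging 10 CPM or more in CD23+ cells, 3 had no count in any LLPC library and 6 had at most 3 counts over the group. Of 7859 features at that level in LLPC, 0 were without counts in CD23+ cells and 8 had at most 3. Those latter counts rested on the CD23+ library of animal 6. Without it 12 of the LLPC features had no count in CD23+ cells and 42 had at most 3.

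The contrast was also taken within each animal. The 6 animal-wise log2 ratios of LLPC to CD23+ (log2 CPM with a prior count of 2) correlated across features with a median Pearson r of 0.86 over 15 pairs of animals, from 0.73 to 0.91. Features are not independent replicates, so no p is attached. Of the 4526 features called higher, 3632 (80.2%) were higher in all 6 animals, and of the 4663 called lower, 4195 were lower in all 6, whereas 6.95% of the features not called had 1 sign in all 6. The calls were made on these same libraries, so these shares are a description and no support for the calls. They also depend on the scaling: with library totals, 47.8% of the features called higher were higher in all 6 animals, 98.8% of those called lower were lower in all 6, and 43.8% of those not called had 1 sign in all 6. On the TMM-scaled CPM, the LLPC and CD23+ values did not overlap for 21.3% of tested features on the higher side and 25% on the lower side. Of these, 2866 of 2871 and 3373 of 3378 were called. On library totals the balance was different, with 1614 features higher and 5302 lower without overlap.

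The spread between animals was itself unlike in the subsets. The common biological coefficient of variation, the relative spread beyond counting noise, was 0.162 among CD23+ libraries and 0.381 among LLPC libraries when each group was fitted alone to the same 13503 features. Without animal 6 the values were 0.137 and 0.303. This difference in spread was not tested.

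Features chosen without an animal marked its libraries. For each animal in turn, features at least 16-fold higher, or at least 16-fold lower, in LLPC were taken from the means of the other 5 animals, with at least 10 CPM in the higher group, which gave 431 to 503 LLPC features and 115 to 126 CD23+ features. In the animal left out, the LLPC features had a median log2 ratio of 5.57, 5.26, 5.60, 4.67, 5.14 and 4.51 in animals 1 to 6. Between 91.7% and 100% of them, depending on the animal, were over 2-fold higher. The CD23+ features had median log2 ratios of -4.12, -5.11, -4.61, -5.28, -5.13 and -4.67, and 100% were over 2-fold lower in each. The summed level of the CD23+ features in LLPC was 5.11% of that in CD23+ cells of the same animal in animal 1, 2.57% in animal 2, 2.96% in animal 3, 2.21% in animal 4, 2.19% in animal 5 and 3.43% in animal 6. The plasma cell library of animal 1 thus held the most CD23+ RNA by this measure. In the reverse direction, the LLPC features in CD23+ cells summed to 0.828 to 1.51% of the level in LLPC in animals 1 to 5 and to 3.05% in animal 6, whose LLPC library held less of these features (16.8% of counts, against 27.4 to 36.3% elsewhere). Whether other cells in the sorts have a part in these values was not tested.

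**Figure D4:**
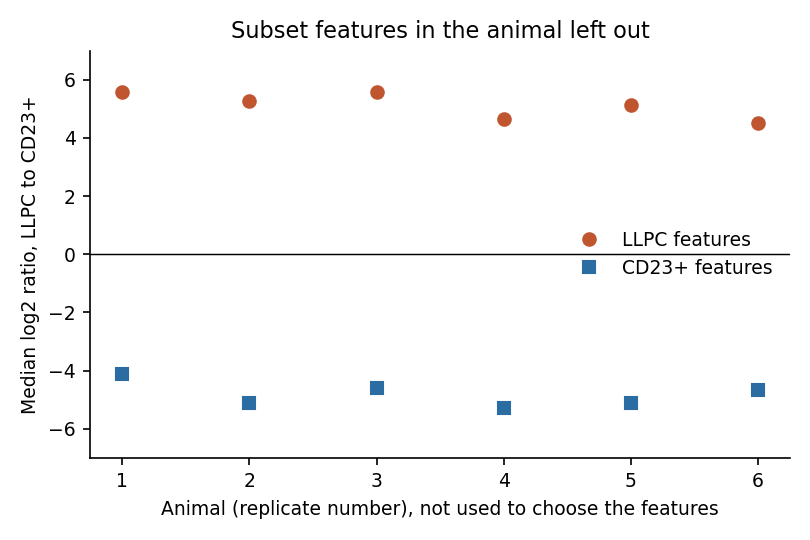
Median log2 ratio of LLPC to CD23+ (y axis) in each of 6 animals (x axis) for features chosen from the other 5 animals, circles for LLPC features and squares for CD23+ features. Circles lie between 4.51 and 5.60 and squares between -5.28 and -4.12, with no animal near 0.

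The same contrast was then measured in animals and libraries that the WT comparison does not use. Of 11860 features tested in cKO high mice, 60.9% differed between LLPC and CD23+ cells, 31.5% higher and 29.5% lower (edgeR, 3 libraries each). These animals differ from the WT in genotype and disease label together, which cannot be told apart here. The log2 fold changes of the 11849 features measured in WT and cKO high mice alike correlated with a Pearson r of 0.94 and a slope of 1.01, a description over features. Of the 4526 features called higher in WT, 3888 were tested in both, and of the 4663 called lower, 4334 were. The others had too few counts in the cKO high libraries to be tested there, so the agreement covers only features detected in those libraries. Of the 3888, 97.8% were on the higher side in cKO high mice and 82.8% were called higher there. Of the 4334, 96.3% were on the lower side and 71.8% were called. Of the 851 WT rises of 16-fold or more, 593 were tested in both, and of the 192 falls, 161 were. All of these lay on the same side in cKO high mice, and 587 and 161 were called. Only 7 of 6337 features called in both had opposite directions.

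A test of the difference itself, with all 18 libraries in 1 fit, called 1 of 13439 features, or 0.00744%, at an edgeR adjusted p of 2.28e-06. Before adjustment, 1105 features were under 0.05. DESeq2 gave 26 calls. Blocking on the animal in edgeR gave 2, and leaving out the LLPC library of WT animal 4 gave 4. The called feature, MGP_BALBcJ_G0007527, was named after its values were seen. In WT it hardly distinguished the subsets, at 980.3 ± 211 CPM in LLPC and 1302 ± 138 in CD23+ cells (n = 6 each; log2 fold change 0.18, adjusted p = 0.226). In cKO high mice, where it was low in both, it was higher in LLPC, at 73.9 ± 42.1 against 4.76 ± 0.407 CPM (n = 3 each; log2 fold change 4.88, adjusted p = 0.000289). The 2 contrasts differed by 4.56 (SE 0.362).

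Of the 4 features chosen for their rise or fall in WT, 3 could be compared between cKO high and WT mice. MGP_BALBcJ_G0020166, at 0 in all LLPC libraries of both, gave no usable estimate of a difference. In cKO high mice the log2 fold changes were 11.50 for MGP_BALBcJ_G0029684, 2.27 for MGP_BALBcJ_G0007650 and -2.16 for MGP_BALBcJ_G0028723, and the differences from WT were -0.97 (SE 0.695), 0.30 (SE 0.451) and 0.05 (SE 0.286), none past the test (edgeR adjusted p = 0.676, 0.855 and 0.969).

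**Figure D5:**
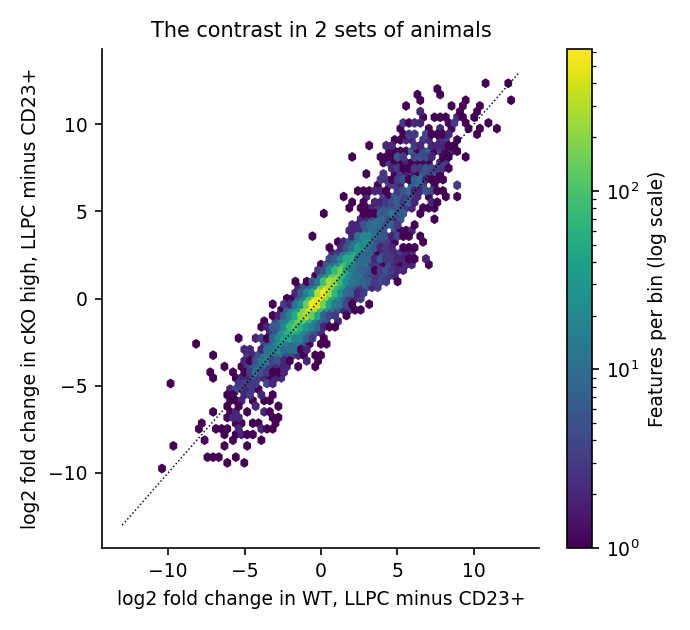
Log2 fold change of LLPC over CD23+ in WT (x axis) and in cKO high mice (y axis), features binned in hexagons coloured by their number on a log scale; the dotted line marks equal values. Most features lie along the line, and a lobe below it holds features with large rises in WT and smaller ones in cKO high mice. Among features called at least 8-fold higher in WT, 107 lay at least 2 below the line and 117 at least 2 above it.

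In the lobe under the line of equal values, WT plasma cell libraries differed among themselves. It was outlined after the values were seen. Of 839 features tested in both sets of animals and called at least 8-fold higher in WT, it took 107 (12.8%). These had a log2 fold change at least 2 lower in cKO high mice. Their median level was 16.6, 7.10, 24.96, 3.49, 4.99 and 71.4 CPM in the WT LLPC libraries of animals 1 to 6, and 7.37, 7.36 and 5.23 CPM in those of the 3 cKO high mice. The libraries of animals 6, 3 and 1 stood above every cKO high library, and those of animals 2, 4 and 5 were within or below the cKO high range. The way these features were chosen itself favours higher values in WT than in cKO high LLPC libraries. In the CD23+ libraries of the same 6 animals the median was 0.731 to 1.49 CPM. None of the 107 passed edgeR's test of the difference between cKO high and WT mice. Of them, 93 had an unadjusted p under 0.05, which the way they were chosen favours. Another 117 of the 839 features departed by as much in the opposite direction.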

How the data were processed

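RNA of sorted cells was measured in 28 libraries, 12 of which are compared here. Per the labels' protocols, the SMARTer Pico V3 low-input kit was used after RNeasy Micro extraction. The submitters' processing notes name FastQC, STAR 2.7.1a and featureCounts. Neither build nor strand setting is given in the sources used here, so overlapping features on opposite strands and near-identical copies are uncertain. The deposited values are raw counts per feature, 1 table per library.

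The 16 WT libraries (6 CD23+, 6 LLPC, 4 ABC) were fitted together in R 4.3.3 with edgeR 4.0.16 (filterByExpr, TMM, robust quasi-likelihood test, two-sided, Benjamini-Hochberg adjustment, called under 0.05). CPM are on library totals unless TMM is named. The members, lists and tests were chosen with earlier results of these data known. Named features were, per direction, those without overlap between groups that had the largest fold change (10 CPM or more where higher) and the largest CPM difference. LLPC and CD23+ libraries with the same replicate number carried the same animal number in the table names, which pairs them. Deviations of same-animal libraries correlated at a median of 0.11, against -0.02 for different animals. The best match of a CD23+ library was the LLPC library of its own animal in only 3 of 6. In animal 2 the same-animal value was 0.012, below its median of 0.065 with other animals. The counts are thus weak evidence on the pairing. Replicates differed by more than counting noise (chi-square per degree of freedom 4.69 to 205.5 over features with at least 20 counts). In a simulation, 13503 features were drawn from their means over all WT libraries, with a spread shared by the groups. Of 50 features changed at each size, all above a floor of abundance, 76% were recovered at 2-fold and 96% at 4-fold. All other features were left unchanged. The recovery therefore does not describe a comparison in which most features differ and the spread is unlike between groups. The limit for a count of 0 covers counting error alone, because PCR duplicates of a molecule were not separated. Alternatives used DESeq2 1.42.0, limma 3.58.1, other scalings and filters, an animal block and libraries left out. Leaving out both libraries of animal 6, and leaving libraries out for the spread and for the counts near 0, were added after seeing the data.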

Additional observations from a re-analysis of the deposited data

Results flagged for a closer look

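In 23 checks within the groups of 6 for a library far from the rest, 4 values from 3 libraries stood out, where chance gives about 1 in 20, or 1.15. The 2 values of the CD23+ library of animal 6 are linked measures. The CD23+ library of animal 6 held counts in 29517 features, and 23944 at equal depth. Of its features, 6883 had no count in the other 11 libraries, against at most 167 for any other CD23+ library. The LLPC library of animal 6 needed 370 features to reach 50% of its counts, against at most 96 in the other 5. The CD23+ library of animal 3 had 14.8% of counts in its 10 leading features, against at most 14.1% in the other 5, a small departure within a tight group. The subset contrast of MGP_BALBcJ_G0007527 differed between cKO high and WT mice by 4.56 on the log2 scale, by edgeR's test of the difference.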

How the results depend on the processing

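The count of 9189 called features was 8754 to 9251 when 1 library was left out, 9193 with the animal as a block (8938 of them shared with the 9189, and none with the opposite sign), 9359 with DESeq2, 9384 with limma, 8256 with the 12 libraries alone, and 8983 without both libraries of animal 6. With the 12 libraries alone, 12124 features were tested, 595 of them called at least 16-fold higher and 163 at least 16-fold lower. The fit of all 16 WT libraries gave 851 and 192 of 13503. Scaling changed the directions, and not to 1 side only. The reported fit had 4526 features higher and 4663 lower. DESeq2 size factors gave 4902 higher and 4240 lower, and TMM without the 10 most abundant features gave 4709 and 4434. With library totals, 2682 features were higher and 7225 lower. At 2-fold or more 2054 were higher and 4761 lower, and at 16-fold or more 676 and 300. In all 6 animals 2168 were higher, against 3738 with TMM. In cKO high mice library totals gave 1658 higher and 7546 lower, 1280 and 5577 at 2-fold, and 326 lower at 16-fold. Without a filter on low counts, 406 features were 16-fold lower in WT, and 1316 higher and 296 lower in cKO high mice, since more features were tested. The 16-fold falls in cKO high mice numbered 167 to 255 with 1 library left out, the highest without LLPC replicate 1. For the difference between cKO high and WT, the calls were 1 to 4 with a library left out, 2 with the animal block, 2 without a filter and 26 with DESeq2. The exact sign-flip permutation test over animal pairs gave p = 0.0312 for the 4 concentration measures, the smallest it can give, and these kept their direction and side of the threshold with each library or the leading feature left out. The CD23+ and LLPC features had median log2 ratios of -2.98 and 3.48 when chosen at 4-fold, and the LLPC features 6.28 when chosen at 50 CPM, as the rule itself sets their size. The count of LLPC features with at most 3 counts in CD23+ cells was 8 to 42 with 1 library left out. The 4 features named for their rise or fall kept direction and call in all 22 settings that were run apart from the one reported, with log2 fold changes of 11.66 to 12.60 for MGP_BALBcJ_G0029684, 1.18 to 2.10 for MGP_BALBcJ_G0007650 and -2.96 to -2.14 for MGP_BALBcJ_G0028723. The causes of these shifts were not tested beyond what each setting changes by construction. The depth of 4651060 to 23866710 counts limits what can be said of features near 0.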
